A study of Canis lupus familiaris with 24 samples.

Results

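HSD17B14 was followed in B-cell lymphoma, a tumour of B lymphocytes, of 4 pet dogs. Lymph node cells were drawn with a fine needle from each dog in a phase when the lymphoma no longer responded to drugs (resistant) and in a phase when it still did (sensitive). Each dog and phase had 3 single-colour Agilent arrays, which gave 8 groups and 24 arrays. The gene is 1 of 27719 genes or unnamed transcripts measured, of which 718 carried a symbol. It was represented by 2 of the 43603 non-control probes, found by matching probe accessions to dog HSD17B14, and both were read on every array. It was chosen by its measured fall in the resistant phase of all 4 dogs, so that difference is described here and is not tested.

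Dog 1 was a male Shih Tzu aged 10 years and dog 2 a male Doberman aged 9 years. Dog 3 was a castrated male French Bulldog aged 3 years, and dog 4 a spayed female French Bulldog aged 5 years. All were pets with a tumour of their own rather than a bred or engineered model. The labels name neither the drugs given nor the interval between the phases, and they do not say whether the 3 arrays of a group came from a single aspirate. A difference between a dog's phases therefore stands for that dog's samples, and a p-value from a single dog reflects array-to-array spread, which may be technical.

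HSD17B14 encodes an enzyme of the short-chain dehydrogenase/reductase family, a large family that oxidises or reduces alcohol and keto groups with NAD or NADP. In human cells the protein is cytosolic, uses NAD, and oxidises estradiol, the active estrogen, to the weaker estrone. The human and rabbit proteins also oxidise the sugar L-fucose. Lymphoma aspirates hold tumour B cells together with T cells, macrophages, vessel cells and the fibroblast-like stroma of the node, and glucocorticoid hormones are often part of chemotherapy for canine lymphoma.

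The bright probe for HSD17B14 lay well above background on 24 of 24 arrays. Its level is given as a percentage of the 75th percentile of the signals of its array, which lay between 676.4 and 1117.6 signal units. In dog 1 it was 4.93, 5.47 and 5.69% on the resistant arrays, against 10.8, 10.9 and 10.9% on the sensitive arrays. In dog 2 it was 7.12, 8.17 and 7.59% on the resistant arrays, against 44.2, 45.0 and 41.6% on the sensitive arrays. Every resistant array thus lay below every sensitive array in both of these dogs, and the sensitive level of dog 2 was the more distant from its resistant level.

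In dog 3 the bright probe stood at 15.4, 14.8 and 15.1% of the 75th percentile on the resistant arrays, against 99.5, 98.0 and 106.98% on the sensitive arrays. In dog 4 it stood at 8.68, 9.37 and 9.07% on the resistant arrays, against 17.5, 20.8 and 16.9% on the sensitive arrays. The phases did not overlap in dogs 3 and 4 either. Across all transcripts tested, resistant arrays lay wholly below sensitive arrays in 33.5%, 26.5%, 25.9% and 23.7% of cases in dogs 1 to 4, and in all 4 dogs at once in 2.91% (807 of 27719). HSD17B14 is among these 807, and since it was chosen for a fall in all 4 dogs, its place there is not an independent result.

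**Figure D1:**
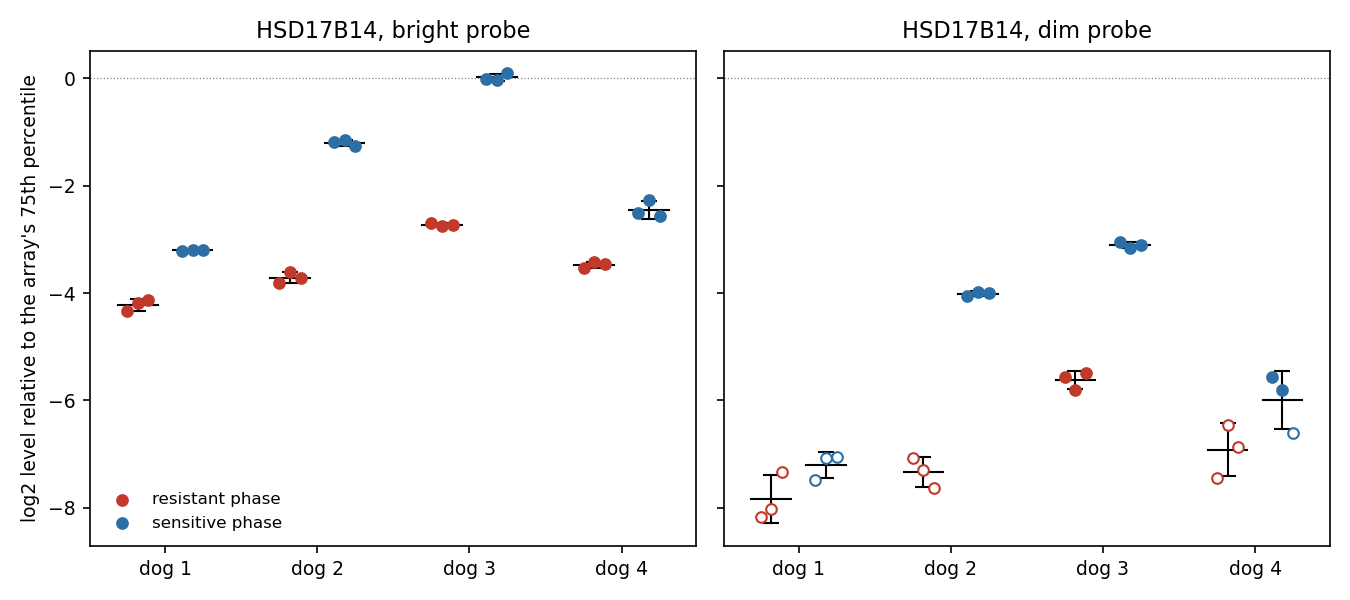
Log2 level of HSD17B14 relative to the 75th percentile of each array, on the 3 resistant (red) and 3 sensitive (blue) arrays of each dog, for the bright probe (left) and the dim probe (right). Filled circles are arrays where the probe lay well above background, open circles are arrays where it did not, and black bars give the mean and SD of 3 arrays. With the bright probe the phases do not overlap in any dog, while with the dim probe they overlap in dogs 1 and 4.

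On the log2 scale the bright probe averaged -4.22 ± 0.11 in the resistant phase and -3.20 ± 0.01 in the sensitive phase of dog 1 (SD, n = 3 arrays each). The means were -3.71 ± 0.10 in the resistant and -1.20 ± 0.06 in the sensitive phase of dog 2. They were -2.73 ± 0.03 in the resistant and 0.02 ± 0.07 in the sensitive phase of dog 3, and -3.47 ± 0.06 in the resistant and -2.45 ± 0.16 in the sensitive phase of dog 4. Resistant minus sensitive was therefore -1.02 (SE 0.06 from the arrays) in dog 1, -2.52 (SE 0.07) in dog 2, -2.75 (SE 0.04) in dog 3 and -1.02 (SE 0.10) in dog 4.

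The dogs fall into 2 sizes of difference. In dogs 1 and 4 the resistant level was 49.3% of the sensitive level, and in dogs 2 and 3 it was 17.5% and 14.9%. The mean over the 4 dogs was -1.83 (SD 0.94, SE 0.47), equal to a resistant level 3.55-fold below the sensitive level, while the median change of all transcripts was 0.06. Of all transcripts, 7.01% had a lower mean in the resistant phase of all 4 dogs, and 2.99% did so by 2-fold or more on average. In limma's fit over the 8 means, blocked by dog, 0 of 27719 transcripts reached an adjusted p under 0.05, 1602 (5.78%) had an unadjusted p under 0.05, and the lowest adjusted p was 0.364.

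The size of the difference depended on the processing. Background correction by normexp with quantile normalisation gave -0.41 in dog 1, against -1.02 as given above, and -0.76 in dog 4. Quantile normalisation without that background correction gave -0.82 in dog 1. In dogs 2 and 3 normexp with quantile normalisation gave -1.72 and -2.24, and the sign stayed negative in every dog under each of the alternatives run. Arrays on the same slide held both phases for dogs 1, 2 and 3, and within those slides the changes were -1.14, -2.45 and -2.72. Each of these rests on a single array of one phase, the resistant phase in dogs 1 and 3 and the sensitive phase in dog 2. The 3 resistant arrays of dog 4 lay on a slide of their own that was scanned on another day, so slide and phase cannot be told apart in that dog.

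The dim probe for HSD17B14 lay well above background on 11 of 24 arrays, so it measured the gene only in part of the samples. Its raw median signal was 35 to 128 over a local background of 20 to 31, whereas the bright probe had 77 to 876 over 17 to 32.5. In dog 3, the 1 dog in which all 6 arrays of the dim probe were well above background, it stood at 2.10, 1.78 and 2.23% of the 75th percentile on the resistant arrays, against 12.1, 11.2 and 11.6% on the sensitive arrays. The change there was -2.52 (SE 0.10), close to the -2.75 of the bright probe.

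In dog 2 the dim probe did not rise well above background on the resistant arrays and was at 6.02, 6.38 and 6.26% on the sensitive arrays. Set against the lowest signal counted as well above background on each of those arrays, its resistant level was at least 5.17-fold lower. In dog 4, 0 resistant and 2 sensitive arrays were well above background and the phases overlapped, so no bound on the fold is given. In dog 1 the dim probe was not well above background on any array and gives no fold. Over the 24 arrays the 2 probes had a Pearson r of 0.970, and over the 8 group means 0.982, given as a description since both read the same RNA on the same arrays.

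The level of HSD17B14 also ranged between dogs within a phase. Among the resistant samples the dog means of the bright probe spanned 1.50 on the log2 scale, a 2.82-fold range, with an SD between dogs of 0.62. Among the sensitive samples they spanned 3.22, a 9.34-fold range, with an SD between dogs of 1.42.

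From high to low, the 8 groups ran dog 3 sensitive, dog 2 sensitive, dog 4 sensitive, dog 3 resistant, dog 1 sensitive, dog 4 resistant, dog 2 resistant and dog 1 resistant. No neighbours in this order overlapped in their arrays. The narrowest gap was 0.09, between dog 4 resistant and dog 2 resistant, and the widest was 1.12, between dog 3 sensitive and dog 2 sensitive. The highest resistant array, from dog 3 at -2.70, exceeded the lowest sensitive array, from dog 1 at -3.21, so a level of HSD17B14 alone did not separate the phases between dogs.

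The mean level of a dog over both phases was not part of how the gene was chosen and could be tested. HSD17B14 did not pass limma's F-test for differences between the 4 dogs over the 8 group means with phase as a covariate (adjusted p = 0.136, unadjusted p = 0.0299). The adjusted p ran from 0.0812 to 0.327 over the alternatives. In that test 1678 of 27719 transcripts (6.05%) passed at an adjusted p under 0.05.

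Among the 717 other measured genes with a symbol, the 8 whose levels ran most like the bright HSD17B14 probe over the 8 group means were IL2, COL1A1, TMEM47, CAV2, KIT, TFPI, TJP1 and PTGES. Their Pearson r with HSD17B14 lay between 0.92 and 0.96. The 8 means come from 4 dogs, and both genes of a pair were read on the same arrays, so these values describe the samples and carry no p. An r of at least 0.9 was reached by 10 of the 717 genes with a symbol (1.39%) and by 212 of all 27718 other transcripts (0.765%), and the median r over all transcripts was -0.106. The phase difference on which HSD17B14 was chosen is part of what this r measures. Without the 2 groups farthest from a gene's median, r over the other 6 was 0.894 for IL2, 0.800 for COL1A1, 0.803 for TMEM47 and 0.798 for CAV2. It was 0.820 for KIT, 0.657 for TFPI, 0.930 for TJP1 and 0.790 for PTGES.

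COL1A1, which encodes a chain of type I collagen, had an r of 0.96 and changes of -0.65, -1.93, -1.44 and -0.76 in dogs 1 to 4. This rests on its brightest probe. The 3 other COL1A1 probes had changes between -1.48 and 0.83. TMEM47, a membrane protein found at cell junctions, had an r of 0.94 and changes of -1.11, -1.33, -2.94 and -0.45. CAV2, a component of caveolae, the small pits of the cell membrane, had an r of 0.94 and changes of -0.40, -0.97, -2.27 and -0.12. For both of these genes, dog 3 had the widest difference and dog 4 the narrowest, whereas HSD17B14 differed about as much in dog 4 as in dog 1. The arrays of the phases overlapped in dog 4 for both genes, and in dog 1 for CAV2. CAV2 was well above background on 2 of the 3 resistant arrays of dog 1.

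PTGES, the enzyme that makes prostaglandin E, had changes of -1.73, -1.31, -1.88 and -0.32 in dogs 1 to 4, and its other probe gave -1.42, -1.22, -1.77 and -0.49. TJP1, a scaffold protein of tight junctions, had changes of -1.90, -1.88, -1.67 and -0.45, but its other probe gave 0.87, -1.80, -0.36 and 0.52. TJP1 lay well above background on 1 of the 3 resistant arrays of dog 1. TFPI, an inhibitor of tissue factor in blood clotting, had changes of -0.60, -0.61, -1.41 and -0.33, and an r of 0.94. KIT, the stem cell factor receptor, had changes of -0.38, -1.23, -1.52 and 0.04. In dog 1 KIT lay well above background on 1 resistant and 2 sensitive arrays, with an SD of 1.13 in the resistant and 1.02 in the sensitive phase. Its r was 0.94 over the group means and 0.768 over the 24 arrays.

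IL2, the T cell growth factor gene, headed the order over group means with an r of 0.96, but over the 24 single arrays its r was 0.56. Its changes were -0.34, -0.59, -0.50 and -0.17, and none of its 5 other probes was kept by the filter on dim probes. The spread between its arrays was wide beside these changes. In dog 3 the sensitive arrays of IL2 ran from -5.52 to -3.86 (SD 0.96), and in dog 2 the resistant SD was 0.76. The opposite end of the order held TH, MAVS and PLA2G1B, with r of -0.78, -0.81 and -0.83. TH encodes the enzyme that starts dopamine synthesis, MAVS an adaptor of antiviral signalling and PLA2G1B a secreted phospholipase. With the dim HSD17B14 probe in place of the bright one, the r of the 8 most alike genes lay between 0.856 and 0.944.

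**Figure D2:**
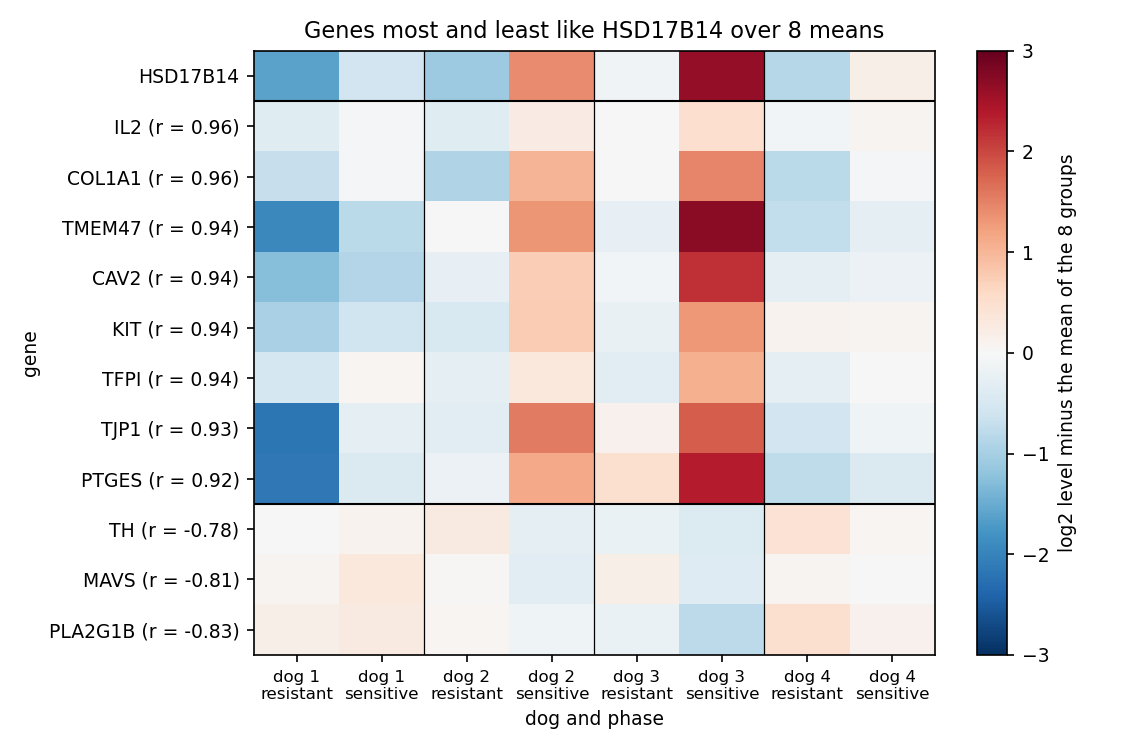
Log2 level of HSD17B14 (top row), the 8 genes with a symbol most like it and the 3 least like it, in the 8 groups of dog and phase, each gene shown as its difference from its own mean over the groups (colour scale, log2). HSD17B14 and each of the 8 genes most like it have their darkest red in dog 3 sensitive, and IL2 spans a far narrower range than HSD17B14 at a similar r. The single arrays of IL2 in dog 3 sensitive ran from -5.52 to -3.86.

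Markers of the other cells of a lymph node were set beside HSD17B14, since a bulk sample cannot tell fewer cells of a type from less RNA per cell. All 8 measured markers of fibroblasts and stroma, of 12 listed, were summed as multiples of the 75th percentile of the array. The sum was 1.20, 2.80, 4.98 and 3.18 in the resistant phase of dogs 1 to 4, against 2.41, 8.73, 15.4 and 4.75 in the sensitive phase. HSD17B14 and this sum had an r of 0.960 over the 8 group means and 0.932 without the 2 groups farthest from the median of the sum. Here too, r takes in the phase difference on which HSD17B14 was chosen. The log2 change of the sum was -1.002, -1.64, -1.63 and -0.58, beside -1.02, -2.52, -2.75 and -1.02 for HSD17B14.

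The part of stroma in the HSD17B14 difference was not tested. By limma within dogs, 3, 6, 6 and 2 of the 8 stroma markers fell in dogs 1 to 4 and 1 rose, in dog 1, at an adjusted p under 0.05 and 2-fold. Over all transcripts, such falls made up 8.1%, 9.84%, 5.39% and 1.5% in the 4 dogs, and such rises 3.83%, 3.98%, 1.36% and 4.06%. CXCL12, a chemokine of lymph node stroma, fell in all 4 dogs and had an r of 0.89 with HSD17B14. PDGFRB, a receptor of fibroblasts and pericytes, had changes between -0.19 and 0.25 and an r of 0.28. COL1A2 and CCL19 carried much of the sum. Without COL1A2 its change in dog 1 turned to 0.61, and without any single member r stayed between 0.891 and 0.962.

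The sums of the other marker lists had a lower r with HSD17B14, and the differences in r were not tested. Unlike the stroma sum, those sums did not fall in every dog, and HSD17B14 was chosen for a fall in all dogs. The sum of 5 T cell markers (CD4, CD8A, CD28, CTLA4 and ICOS) had an r of 0.540, with log2 changes of -0.70, -4.02, -0.42 and 0.47. Of these 5 markers, 3, 5, 3 and 0 fell in dogs 1 to 4 by limma within dogs, beside 8.1%, 9.84%, 5.39% and 1.5% of all transcripts. The 3 in dog 1 included ICOS, well above background there on 0 resistant and 0 sensitive arrays. They also included CD28, well above background on 1 of the 3 resistant arrays. The median change of the 5 markers was -1.28 in dog 3 and 0.64 in dog 4. Taken singly, 3 of the 5 had an r over 0.5, with a median of 0.654. For the sum of 2 NK and cytotoxic markers r was 0.507, and 0.709 without the 2 groups farthest from its median. Of these markers, 2, 2, 1 and 0 fell in dogs 1 to 4, beside the same shares of all transcripts. The r was 0.444 for 3 endothelial markers, 0.210 for 4 neutrophil markers, 0.208 for 2 fat cell markers and -0.104 for 2 macrophage markers. Without the 2 groups farthest from the median of each sum, r was 0.455 for T cell and 0.346 for endothelial markers. It was then -0.54 for neutrophil, 0.31 for fat cell and 0.03 for macrophage markers, so its sign turned for the neutrophil and macrophage sums. KDR, the vessel growth factor receptor, was the 1 endothelial marker with an r over 0.5, at 0.91. It was well above background on 0 of the 3 resistant arrays of dog 1. In dog 4 its log2 mean was higher in the resistant phase, at -4.63 against -4.95, where HSD17B14 was lower.

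The tumour cell type itself was represented by MS4A1, which encodes the B cell antigen CD20, and CD40, both well above background on all arrays. Their sum was 64.5, 81.0, 69.9 and 61.2 in the resistant phase of dogs 1 to 4, against 55.6, 76.3, 60.0 and 62.3 in the sensitive phase. The log2 changes of the sum were 0.22, 0.09, 0.22 and -0.03, and its r with HSD17B14 was -0.067. CD40 carried most of this sum. MS4A1 alone was lower in the resistant phase of dog 1, at 1107% of the 75th percentile against 1355%, and of dog 4, at 1124% against 1369%. It was higher in the resistant phase of dog 2, at 1683% against 1509%, and of dog 3, at 2020% against 1742%. No marker of the liver or kidney epithelium list was kept by the filter on dim probes.

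**Figure D3:**
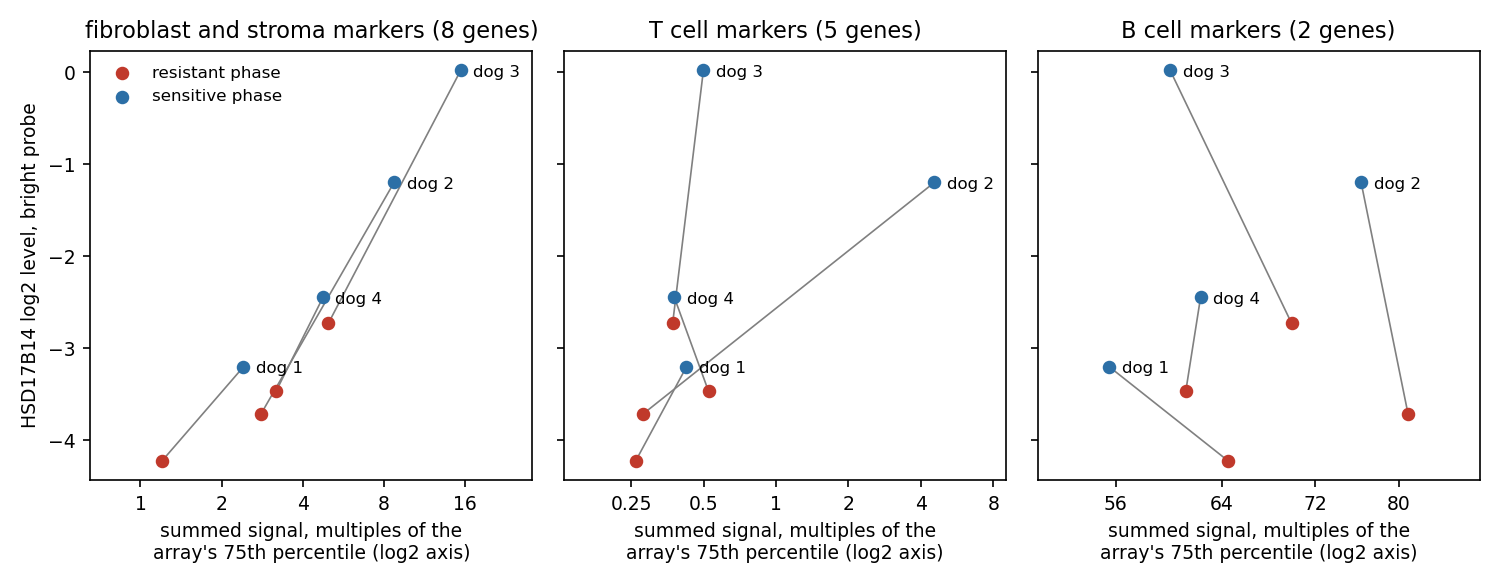
Log2 level of the bright HSD17B14 probe against the summed signal of the measured markers of stroma, T cells and B cells (log2 axis, multiples of the 75th percentile of the array), in each dog and phase. Lines join the resistant (red) and sensitive (blue) group of a dog. Along the stroma axis the 8 groups run close to a single line (r = 0.960), while the B cell sum lies between 55.6 and 81.0 in all of them. That r takes in the phase difference on which HSD17B14 was chosen.

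HSD17B14 works in steroid and short-chain dehydrogenase metabolism, and 144 genes of 5 related lists were looked up. Of these, 18 had a symbol on the array and 13 were measured. Across dogs 0 of the 13 passed limma's test. Within dogs, at an adjusted p under 0.05 and 2-fold, 12 of the 52 gene and dog pairs passed, 4 higher and 8 lower, where such calls in either direction made up 11.9%, 13.8%, 6.75% and 5.56% of all transcripts in dogs 1 to 4.

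HSD11B1, the short-chain dehydrogenase that turns cortisone into active cortisol, fell by 1.33 in dog 1 (SE 0.07, adjusted p = 1.87e-11 by limma) and by 1.47 in dog 2 (SE 0.07, adjusted p = 2.36e-12). Its level was 3.08% of the 75th percentile in the resistant and 7.71% in the sensitive phase of dog 1, and 21.1% in the resistant and 58.6% in the sensitive phase of dog 2. Its changes in dogs 3 and 4 were -0.56 and 0.32, short of 2-fold. HSD11B1 thus followed HSD17B14 in part of the dogs, with an r of 0.54. The call in dog 1 ended under normexp (-0.54) and with the authors' value table (-0.89).

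CYP21A2, a cytochrome of cortisol and aldosterone synthesis, rose by 1.25 in dog 1 (SE 0.34, adjusted p = 0.00485 by limma), where HSD17B14 was lower, and did not pass in the other dogs. That call also ended under normexp (0.51) and with the value table (0.55). DHRS4, a short-chain dehydrogenase of retinoids and carbonyl compounds, had changes of 0.18, -0.20, 0.12 and -0.52 in dogs 1 to 4 and passed the 2-fold threshold in none. HSD3B2, CYP19A1, STAR and AKR1C3 were on the array but were not kept by the filter on dim probes. CYP19A1 encodes aromatase, which makes the estrogens that HSD17B14 acts on, and STAR moves cholesterol into mitochondria for steroid synthesis.

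Among 5 measured nuclear receptors, PPARG, a regulator of fat cell and macrophage genes, rose by 1.63 in dog 2 and fell by 1.68 in dog 3 (SE 0.05 each, adjusted p = 4.34e-15 and 9.73e-15 by limma). The call in dog 3 ended under normexp (-0.78). HSD17B14 was lower in both of those dogs. PGR, the progesterone receptor, passed the threshold in dogs 3 and 4 (adjusted p = 0.0495 and 0.011 by limma), and both are counted among the 4 higher calls, but its signal was near background. In dog 3 it was well above background on 1 resistant and 0 sensitive arrays and gives no fold. In dog 4 it was well above background on 3 resistant and 1 sensitive arrays, with a difference of 1.60 (SE 0.48) and an SD of 0.13 in the resistant and 1.47 in the sensitive phase. The PGR call in dog 3 ended in 25 of 33 alternatives, and that in dog 4 ended without sensitive replicate 3 (0.76), under normexp (0.26) and with the value table (0.56). The estrogen-related receptor ESRRA changed by -0.18, -0.33, -0.16 and 0.47 in dogs 1 to 4, the retinoic acid receptor RARA by -0.34, -0.08, -0.11 and 0.45, and PPARD, a lipid-sensing receptor, by 0.49, 0.46, -0.04 and -0.05, all short of 2-fold. Of all transcripts, 78.8% passed limma's F-test of whether the phase difference varied between dogs (adjusted p under 0.05).

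Of the 3 measured genes of the glucocorticoid-responsive list, 1, 1, 2 and 0 fell in dogs 1 to 4. Each had such a fall in at least 1 dog, as did 17.2% of all transcripts. GLUL, glutamine synthetase, had changes of -0.62, -1.65, -0.56 and -0.41 in dogs 1 to 4 and passed with 2-fold in dog 2 (SE 0.05, adjusted p = 1.57e-15 by limma). MT2A, a metal-binding metallothionein, fell by 1.54 in dog 1 and by 1.94 in dog 3 (SE 0.24 each, adjusted p = 2.48e-05 and 2.08e-06 by limma). Its SD in dog 3 was 0.82 in the resistant and 0.01 in the sensitive phase. With the slide as a block the MT2A change in dog 3 was -0.99, short of 2-fold. CD163, a haemoglobin scavenger receptor of macrophages, fell by 1.33 in dog 3 (SE 0.06, adjusted p = 3.36e-12), a call that ended under normexp (-0.75). Neither MT2A (r = -0.002) nor CD163 (r = -0.11) ran with HSD17B14 over the 8 groups.

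Of the cholesterol list, NPC2, a lysosomal cholesterol carrier, fell by 2.38 in dog 2 (SE 0.05, adjusted p = 2.71e-18 by limma), and its r with HSD17B14 was 0.74. Its level in dog 2 was 65.3% of the 75th percentile in the resistant and 339.3% in the sensitive phase, and its changes in dogs 1, 3 and 4 were 0.16, -0.44 and 0.06. NPC1, its membrane partner, had changes of -0.01, -0.44, 0.44 and -0.21. Over the 5 lists the median of the mean changes was -0.21 for the 2 steroid enzymes, -0.11 for DHRS4 alone, 0.21 for the receptors, -0.81 for the glucocorticoid-responsive genes and -0.35 for the cholesterol genes, beside 0.06 for all transcripts and -1.83 for HSD17B14.

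**Figure D4:**
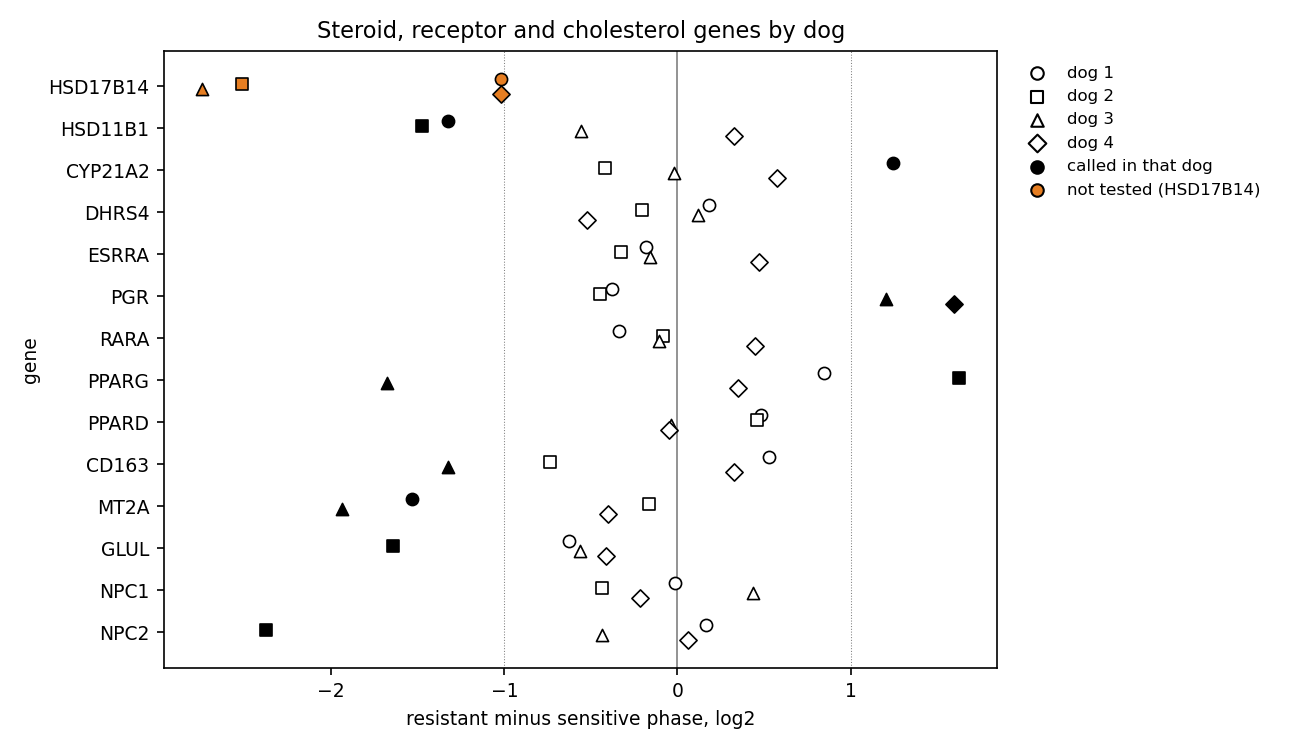
Resistant minus sensitive phase (log2) for HSD17B14 (orange, not tested) and the 13 measured genes of the steroid, receptor, glucocorticoid and cholesterol lists, with a symbol for each dog. Black symbols passed limma's test within that dog at an adjusted p under 0.05 and 2-fold, and dotted lines mark 2-fold. All 4 HSD17B14 symbols lie left of the dotted line at -1, those of dogs 1 and 4 close to it at -1.02. The gene was chosen for its fall in all dogs, so its place against the other genes shown is not a result. Under normexp with quantile normalisation its changes in dogs 1 and 4 were -0.41 and -0.76.

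Neighbouring genes in the genome were read as a last comparison. In the RefSeq order of the dog assembly UU_Cfam_GSD_1.0, used for order and names alone, 3 of the 30 nearest genes of HSD17B14 were measured under a symbol. BAX, which encodes a protein that starts mitochondrial cell death, lay 6 genes away and had changes of -0.33, -0.02, -0.36 and -0.35 in dogs 1 to 4. FTL, the light chain of the iron store ferritin, lay 8 genes away and had changes of -0.07, -0.06, -0.22 and 0.14. DHDH, a dihydrodiol dehydrogenase 5 genes away, fell by 1.87 in dog 2 (SE 0.07, adjusted p = 2.15e-14 by limma) and had changes of -0.32, 0.16 and -0.31 in dogs 1, 3 and 4. Their r with HSD17B14 lay between 0.21 and 0.28. None of the 3 had large differences in both dogs 2 and 3, as HSD17B14 had, a gene chosen for its fall.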

How the data were processed

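The files hold spot intensity as the authors deposited it, which is scanner output of Agilent Feature Extraction 10.7.3.1 (per the file headers). The deposited processed signal had its background subtracted within each array. The authors' deposited value table is the raw median intensity, with 0 as the largest difference from the scanner files. It is linear, not normalised, and its columns have medians of 97 to 141. Labelling with Cy3 used a low-input kit after storage in RNAlater, per the labels' protocols. The labels and scanner files give no genome build, and UU_Cfam_GSD_1.0 was used for gene names and order alone.

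Processed signals were turned to log2 and the 75th percentile of the array was taken off. Left out were 1417 control spots of 45220 and 6 to 195 outlier spots an array, repeats of a probe were averaged, and 0 spots were saturated. A probe counted as well above background on an array when most of its spots in use did. It was kept if this held on the 3 arrays of any dog and phase (34550 of 43603 probes). Each gene was read from its brightest probe, which gave 27719 genes or unnamed transcripts, 718 (2.59%) with a symbol. A RefSeq table (UU_Cfam_GSD_1.0) named 832 of 35908 identifiers. On an array 71.0% to 80.9% of spots were well above background. Arrays within a group had a median r of 0.992, and each of the 8 groups was nearest to the other phase of its dog. The number of dogs, 4, limits the precision across dogs, and the number of arrays limits that within a dog.

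Two-sided tests used limma (3.58.1, R 4.3.3) on the 8 means, blocked by dog, and on the 24 arrays in 8 groups, with Benjamini-Hochberg adjustment over all transcripts. The code was tested on simulated data. Beside HSD17B14, the genes named were the 8 most and 3 least like it, all measured steroid enzymes, other dehydrogenases and nuclear receptors, up to 4 others of each pathway list by mean change, and measured neighbours among the 15 genes on each side. Single markers and further probes of named genes were picked out after their values were seen. HSD17B14 and all gene lists were chosen with earlier results of these data known.

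Alternatives were median and quantile scaling, normexp (offset 50, on median signals), the authors' value table, other filters and probes, slide and replicate blocks, and leaving out each array or dog. The dim probe in the ranking of like genes, and the stroma sum without each member, were chosen after seeing the data.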

Additional observations from a re-analysis of the deposited data

Results flagged for a closer look

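Besides HSD17B14, 16 genes of the pathway lists and the gene's neighbourhood were named in the comparisons above, and 16 of 16 had a change that differed between the dogs at an adjusted p under 0.05 by limma's F-test of the dog-by-phase interaction over the 24 arrays. So did 78.8% of all transcripts (21840 of 27719), so passing it does not set these genes apart. The adjusted p of the interaction was 4.33e-11 for HSD11B1 (changes of -1.33, -1.47, -0.56 and 0.32 in dogs 1 to 4), 0.0221 for CYP21A2 (1.25, -0.42, -0.02 and 0.58) and 0.017 for PGR, whose signal was not well above background on any sensitive array of dog 3 or any resistant array of dog 2. It was 1.75e-16 for PPARG (0.84, 1.63, -1.68 and 0.35), 1.8e-12 for CD163 (0.53, -0.74, -1.33 and 0.33) and 0.000223 for MT2A (-1.54, -0.17, -1.94 and -0.40). It was 4.18e-11 for GLUL (-0.62, -1.65, -0.56 and -0.41), 3.88e-16 for NPC2 (0.16, -2.38, -0.44 and 0.06) and 4.89e-12 for DHDH (-0.32, -1.87, 0.16 and -0.31). For the genes whose change passed the 2-fold threshold in no dog, it was 1.8e-08 for DHRS4, 1.44e-08 for ESRRA, 1.57e-07 for RARA, 2.86e-07 for PPARD, 6.57e-08 for NPC1, 1.45e-06 for FTL and 5.4e-05 for BAX. These p-values measure the spread between arrays and not between samples of a dog. The interaction was not tested for HSD17B14, which was chosen on that contrast.

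For BAX, dog 2 stood apart from the other dogs, with a change of -0.02 against -0.33, -0.36 and -0.35 in dogs 1, 3 and 4. The gap of dog 2 to its nearest neighbour was 0.91 of the whole range, above the critical value of Dixon's test for an outlying value among 4. With 16 genes looked at, about 1 in 20 would be marked by chance.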

How the results depend on the processing

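The mean HSD17B14 change of -1.83 ran from -2.09 to -1.28 over 38 alternatives and from -1.84 to -1.80 when any single array was left out. With the bright probe, changes in single dogs ran from -1.14 to -0.41, -2.57 to -1.72, -2.77 to -2.24 and -1.13 to -0.75 in dogs 1 to 4. The count of transcripts passing across dogs was 0 in all 35 alternatives. The count of calls within dogs, 10551 over the 4 dogs, was 3166 under normexp, 4544 with the value table, 4972 with probes well above background on all 24 arrays, and 10057 to 11309 without any single array. The count of transcripts differing between dogs, 1678, was 3503 under normexp, 3309 with the value table, 2695 with that stricter filter, 1100 with no filter, 855, 223, 397 and 274 without dogs 1 to 4, and 1411 to 1767 without any single array. Leaving out a dog leaves fewer samples in the fit. The causes of the other shifts were not tested. Same-numbered arrays of a dog's 2 phases did not deviate together (r of -0.132 to 0.0891 over 12 pairs), and with the replicate number as a block the count within dogs was 10416. The 12 calls of pathway genes numbered 6 under normexp. In dog 1 the bright HSD17B14 probe had its lowest levels and the dim probe was not well above background on any array, which limits how well the difference there was measured.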
